A study of Ramazzottius varieornatus with 18 samples.

Results

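The transcripts described here are 2 of the 14532 predicted coding transcripts measured in the juveniles of the tardigrade Ramazzottius varieornatus. They are g2400.t1, the ortholog of sad, and g13718.t1, the ortholog of CYP18A1. The study gave both names by protein sequence searches with the molting pathway genes of other animals, and they were taken by these names as the enzymes of ecdysteroid synthesis and breakdown in that pathway, with no threshold on a measured value. RNA was taken from the whole body of juveniles of strain YOKOZUNA-1, which descends from a single individual, on 6 labelled days of the juvenile stage, Juvenile 2d, 3d, 4d, 5d, 6d and 7d. No treatment was given on any day, all cultures were fed with Chlorella vulgaris, and each day had 3 libraries, 18 in all. The labels do not say whether the 3 libraries of a day came from separate cultures or how many animals each held, so the spread between them may be partly technical.

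Ecdysteroids are the steroid hormones that trigger molting in arthropods. In insects sad (shadow) encodes one of the cytochrome P450 enzymes of the Halloween group and carries out the last step that yields ecdysone, which another enzyme then turns into the active hormone. CYP18A1 is a further P450 that oxidizes and so inactivates the active hormone in insects, and its transcript there is itself induced by ecdysteroids. The hormone acts through a receptor of EcR and USP/RXR, which regulates a series of transcription factors including E74, E75, E78, HR3, HR4 and bFtz-F1. These roles come from insects, chiefly Drosophila melanogaster, and neither enzyme activity nor hormone was measured in these juveniles. The comparison between days asks when along the juvenile days the transcript for synthesis and the transcript for breakdown were high or low.

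The total of the estimated counts per library lay between 1250604 and 5095736, with a median of 3700490, and it was lowest in Juvenile 7d replicate 3 and highest in Juvenile 6d replicate 1. Across transcripts with a mean above 1 TPM (a transcript's abundance scaled by its coding length and by the library total), the libraries of Juvenile 2d to 5d each resembled their own day most. The 6 libraries of Juvenile 6d and 7d did not, and 3 of them stood apart. Juvenile 6d replicate 1 had a median correlation of 0.873 with its own day and 0.929 with Juvenile 2d. Juvenile 6d replicate 3 had 0.879 with its own day and 0.941 with Juvenile 7d, and Juvenile 7d replicate 3 had 0.874 with its own day and 0.912 with Juvenile 6d. Juvenile 7d replicates 1 and 2, not counted among the 3, correlated at 0.966 with each other. They had 0.922 and 0.918 with their own day and 0.927 and 0.935 with Juvenile 3d. Most results that rest on the 3 libraries that stood apart are given with and without them. Leaving out all 3 keeps 1 library at Juvenile 6d, and its spread is then assumed to be like that of the other days. The 3 were picked from these same data because they stood apart from their own day. Leaving them out therefore tends to shrink the spread for many transcripts, and smaller p-values without them add no separate support.

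Both transcripts were detected in all 18 libraries and both passed the filter on low counts. Their genes have a single predicted transcript each, and all of their estimated counts were whole numbers, so no read was divided with another transcript. The lowest count of sad was 91, in Juvenile 7d replicate 3, with a 95% exact Poisson interval of 73.3 to 111.7, and the lowest count of CYP18A1 was 81, in Juvenile 2d replicate 2, with an interval of 64.3 to 100.7. These intervals cover counting error only, because the reads carry no molecular identifiers. The coding sequence is 1830 bases long for sad and 1623 bases long for CYP18A1.

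The transcript of sad was lowest at Juvenile 2d, was higher at Juvenile 3d and 4d, and was lower again at Juvenile 5d than at Juvenile 3d. At Juvenile 2d its 3 libraries held 16.4, 14.9 and 12.8 TPM. At Juvenile 3d they held 38.0, 59.6 and 36.7 TPM, and at Juvenile 4d 47.5, 43.7 and 34.1 TPM. Each library of these 2 days was above each library of Juvenile 2d. How many of all transcripts separate in this way was not counted, here or for CYP18A1. Separation therefore does not set either gene apart. At Juvenile 5d the values were 21.2, 16.4 and 26.9 TPM, all below those of Juvenile 3d and 4d, and the lowest of them was within the range of Juvenile 2d. At Juvenile 6d replicates 1 and 2 held 16.6 and 21.8 TPM and replicate 3 held 51.9 TPM, close to the Juvenile 3d and 4d values. At Juvenile 7d replicates 1 and 2 held 43.5 and 40.1 TPM, whereas replicate 3 held 23.9 TPM. In whole-body RNA, fewer cells that express a gene and less RNA in each of them cannot be told apart.

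**Figure D1:**
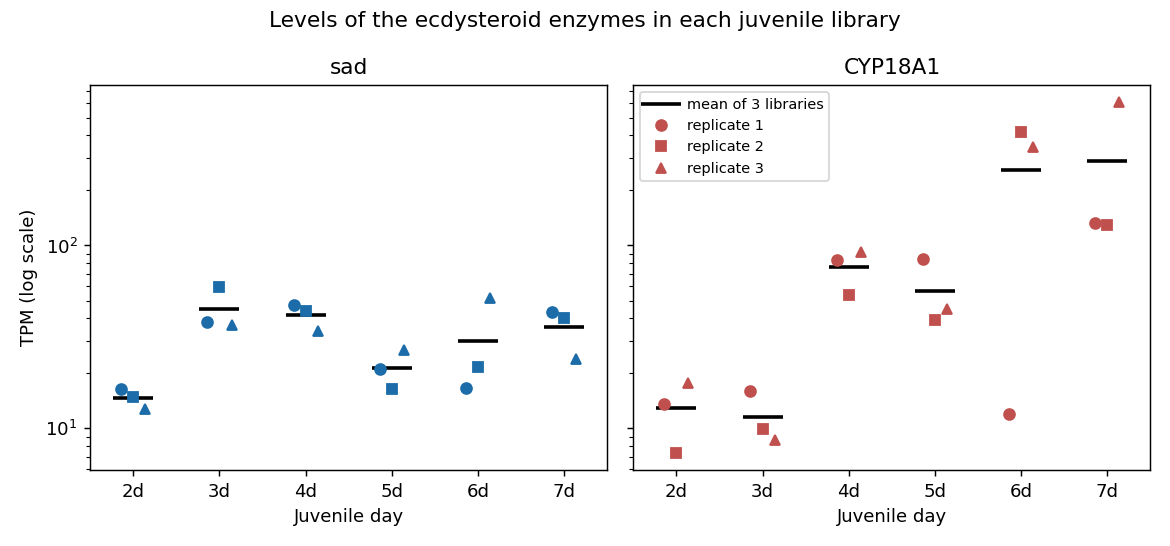
TPM on a log scale of sad (left) and CYP18A1 (right) in the 3 libraries of each juvenile day, with a symbol for each replicate and a bar at the daily mean. The sad libraries span 12.8 to 59.6 TPM, and the CYP18A1 libraries span 7.36 to 606 TPM with the widest spread at Juvenile 6d.

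CYP18A1 was low at Juvenile 2d and 3d, higher at Juvenile 4d and 5d, and reached its highest levels in libraries of Juvenile 6d and 7d. It held 13.6, 7.36 and 17.8 TPM at Juvenile 2d and 15.95, 9.92 and 8.64 TPM at Juvenile 3d, which overlap. At Juvenile 4d the libraries held 82.8, 53.4 and 91.9 TPM, and at Juvenile 5d 84.1, 39.3 and 44.9 TPM. All 6 libraries of these days were above all 6 libraries of the 2 days before. Differences between these days were frequent. In the tests described below 49.5% of all transcripts were called at Juvenile 4d over 2d and 12.5% at Juvenile 4d over 3d. At Juvenile 5d the shares were 33.2% over Juvenile 2d and 19.5% over Juvenile 3d. Juvenile 6d split widely, with 11.99 TPM in replicate 1 and 419 and 346 TPM in replicates 2 and 3. Replicate 1 lay within the range of Juvenile 2d and 3d, and its transcriptome as a whole resembled that of Juvenile 2d most. At Juvenile 7d replicates 1 and 2 held 133 and 129.7 TPM, and replicate 3 held 606 TPM, the highest value of all 18 libraries. That last library is also the one with the lowest total count.

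The daily means of sad ran from 14.7 ± 1.8 TPM (SD, n = 3) at Juvenile 2d through 44.7 ± 12.9 at Juvenile 3d, 41.8 ± 6.9 at Juvenile 4d, 21.5 ± 5.2 at Juvenile 5d and 30.1 ± 19.1 at Juvenile 6d to 35.8 ± 10.5 at Juvenile 7d. From high to low the order was Juvenile 3d, 4d, 7d, 6d, 5d and 2d. No neighbours in this order differed by the test, and all neighbouring ranges overlapped. The daily means of CYP18A1 were 12.9 ± 5.2, 11.5 ± 3.9, 76.1 ± 20.1, 56.1 ± 24.4, 259 ± 217 and 289.5 ± 274 TPM from Juvenile 2d to 7d. Their order from high to low was Juvenile 7d, 6d, 4d, 5d, 2d and 3d, and again no neighbours differed by the test, although all 3 Juvenile 5d libraries lay above all 3 Juvenile 2d libraries.

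The highest daily mean was 3.04 times the lowest for sad and 25.2 times the lowest for CYP18A1, against a median of 2.55 over transcripts above 1 TPM. In log2(TPM + 1) the median transcript at Juvenile 3d was itself 0.24 above Juvenile 2d, and the fitted difference of sad between these days was 2.47-fold. Ranked among transcripts above 1 TPM, sad stood at percentile 59.9 and CYP18A1 at percentile 92.7 of the fold between daily means. That fold was larger than in CYP18A1 for HR3 (409), HR4 (82.0), bFtz-F1 (70.3) and EcR g8354.t1 (40.6). It was smaller for the rest of the molting pathway transcripts that the study named. Single libraries differed by up to 4.65-fold for sad and 82.3-fold for CYP18A1. The replicate spread of CYP18A1 was wide on most days. The SD of its log2(TPM + 1) values stood at percentile 93.9 among transcripts at Juvenile 2d, 99.0 at Juvenile 6d and 93.2 at Juvenile 7d. At Juvenile 3d, 4d and 5d it stood at 85.6, 82.4 and 88.8. For sad that percentile lay between 55.0 and 82.8 on the 6 days.

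Differences between days were tested on the estimated counts with edgeR's quasi-likelihood test, in a single fit to 10436 transcripts and 18 libraries whose only term was the day. The Benjamini-Hochberg adjustment covered all transcripts tested, and a difference was called where the adjusted p did not exceed 0.05. Fold changes are the later day over the earlier day on the log2 scale, with the standard error (SE). A difference over any of the 6 days was called for sad (adjusted p = 0.0164) and for CYP18A1 (adjusted p = 0.00139). Such a call was made for 66.4% of all transcripts tested, so it does not set either gene apart. Both calls held in each of the 27 alternative fits, with adjusted p-values of up to 0.0470 for sad and up to 0.00891 for CYP18A1. Those fits include the one without the 3 libraries that stood apart, which were picked from these same data.

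Of the 15 pairs of days, 4 were called for sad. It was higher at Juvenile 3d than at Juvenile 2d by 1.31 on the log2 scale (SE 0.32, edgeR adjusted p = 0.00854), a comparison in which 25.8% of all transcripts were called. The call held in all 28 alternatives tried for this pair, among them each omission of a single library, with fold changes of 1.07 to 1.57. At Juvenile 4d sad was higher than at Juvenile 2d by 1.03 (SE 0.31, edgeR adjusted p = 0.0139), with 49.5% of all transcripts called. Only the omission of Juvenile 2d replicate 3 took that call away (adjusted p = 0.0545), and without the 3 libraries that stood apart it was 1.03 (adjusted p = 0.00108).

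From Juvenile 3d to 5d the direction of sad turned. Its level at Juvenile 5d fell by 1.03 on the log2 scale against Juvenile 3d (SE 0.31, edgeR adjusted p = 0.0321), with 19.5% of all transcripts called. This call was lost without replicate 2 or 3 of Juvenile 3d and without replicate 1 or 2 of Juvenile 5d, with adjusted p-values of 0.0534 to 0.153 and fold changes of -1.10 to -0.76. It was also lost with limma on log2(TPM + 1) (adjusted p = 0.0624). Without the 3 libraries that stood apart the adjusted p was 0.00219. Against Juvenile 4d the value at Juvenile 5d was -0.76 (SE 0.31, edgeR adjusted p = 0.0901), with 24.8% of all transcripts called. That pair was called without Juvenile 6d replicate 3 (adjusted p = 0.0382) and without the 3 libraries that stood apart (adjusted p = 0.0114). Juvenile 4d and 3d did not differ by the test for sad, at -0.27 with a 95% interval of -0.88 to 0.33 (adjusted p = 0.621), where 12.5% of all transcripts were called.

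The fourth pair called for sad was Juvenile 7d over 2d, at 0.82 (SE 0.31, edgeR adjusted p = 0.0439), with 48.1% of all transcripts called. The median over all transcripts for this pair was 0.13, so relative to the bulk of the transcriptome the difference was smaller. This call lay close to the threshold. It was lost in 9 of the 18 fits that left out 1 library, namely any replicate of Juvenile 2d or 4d, Juvenile 5d replicate 1, and Juvenile 7d replicates 1 and 2, with adjusted p-values of 0.0502 to 0.163. Of these fits, those without a Juvenile 4d or 5d library kept the difference at 0.82 (edgeR adjusted p = 0.0502 to 0.0538). Upper quartile normalization (0.70, adjusted p = 0.0807) and testing without the filter on low counts (0.81, adjusted p = 0.0545) ended the call as well. Without the 3 libraries that stood apart sad was higher by 1.04 (adjusted p = 0.00234). Against Juvenile 3d, sad was at -0.72 at Juvenile 6d (adjusted p = 0.143) and at -0.49 at Juvenile 7d (adjusted p = 0.264), in comparisons that called 10.7% and 22.5% of all transcripts. The value at Juvenile 6d was called only where Juvenile 6d replicate 3 was left out, alone (-1.16, adjusted p = 0.0286) or with the other 2 libraries (-1.22, adjusted p = 0.0112). The same omissions called Juvenile 6d over 4d for sad, which stood at -0.44 with all libraries (adjusted p = 0.326) and at -0.88 without Juvenile 6d replicate 3 (adjusted p = 0.0368). The remaining pairs, of Juvenile 5d and 6d over 2d, 7d over 4d, 6d over 5d and 7d over 5d, lay between -0.21 and 0.59 and were not called, although Juvenile 7d over 5d was called without the 3 libraries that stood apart (0.77, adjusted p = 0.0183).

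For CYP18A1 5 of the 15 pairs were called, all of them higher on the later day. The differences were largest from Juvenile 3d to the last days. Against Juvenile 3d it was higher at Juvenile 6d by 4.26 on the log2 scale (SE 0.90, edgeR adjusted p = 0.0124) and at Juvenile 7d by 4.45 (SE 0.91, edgeR adjusted p = 0.00595). Against Juvenile 2d the values were 3.81 at Juvenile 6d (SE 0.88, edgeR adjusted p = 0.00551), with 36.1% of all transcripts called, and 4.00 at Juvenile 7d (SE 0.89, edgeR adjusted p = 0.00219). Both differences at Juvenile 7d held in all 27 alternatives. They were smaller without the 3 libraries that stood apart, at 3.35 over Juvenile 3d and 2.89 over Juvenile 2d. The values at Juvenile 6d, then from 1 library of that day, were 5.00 over Juvenile 3d and 4.55 over Juvenile 2d. The difference between Juvenile 6d and 3d was lost without Juvenile 3d replicate 2 (4.16, adjusted p = 0.0706) or without Juvenile 3d replicate 3 (4.12, adjusted p = 0.0555), and with limma on log2(TPM + 1) (3.35, adjusted p = 0.0588). In a fit to the 6 libraries compared alone, Juvenile 6d gave 3.75 over Juvenile 2d (adjusted p = 0.0685) and 4.23 over Juvenile 3d (adjusted p = 0.142), neither of them called.

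**Figure D2:**
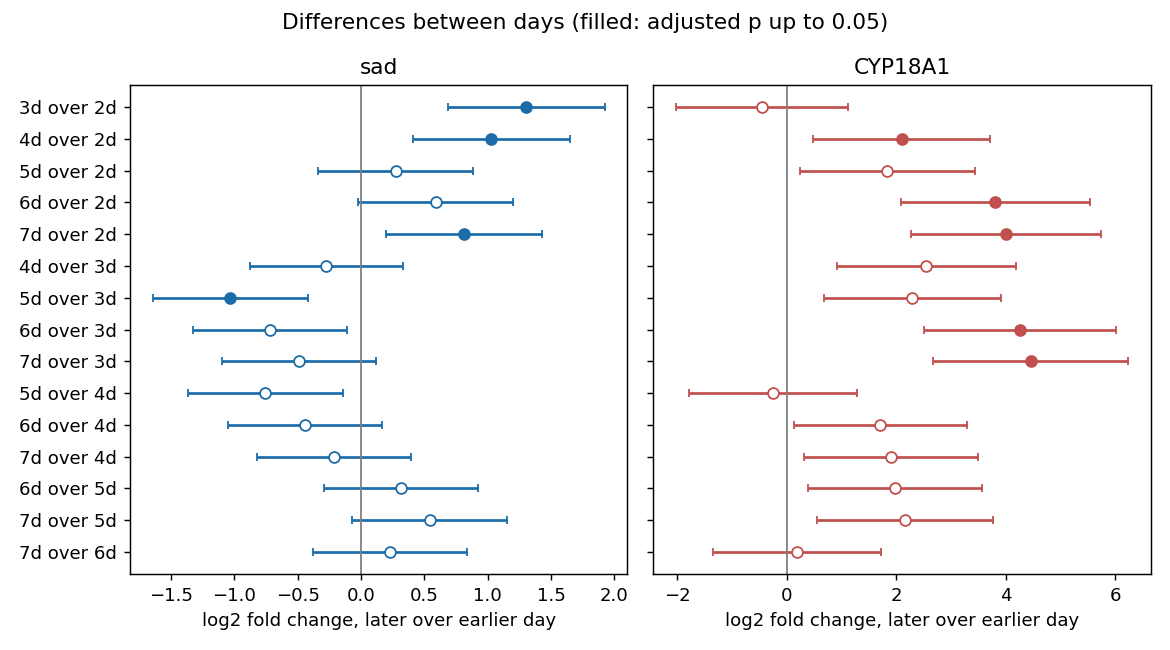
Log2 fold change of the later over the earlier day for each of the 15 pairs of days, for sad (left) and CYP18A1 (right), on axes of different length. Bars reach 1.96 SE to each side and filled points have an adjusted p of up to 0.05, which are 4 pairs for sad and 5 for CYP18A1.

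From Juvenile 3d to 4d CYP18A1 moved to another range of levels. At Juvenile 4d it was higher than at Juvenile 3d by 2.55 on the log2 scale, a 5.86-fold difference with no overlap between the libraries. In the fit to all 18 libraries, which estimates a single spread for each transcript over all days, the SE was 0.84 and the pair was not called (edgeR adjusted p = 0.0590). Some fits with fewer libraries called it at nearly the same size. Without the 3 libraries that stood apart the value was 2.55 (adjusted p = 0.000233), with Juvenile 6d replicate 1 alone left out it was 2.53 (adjusted p = 0.00548), and with Juvenile 7d replicate 3 alone left out it was 2.55 (adjusted p = 0.0329). A fit to the libraries of Juvenile 2d to 5d, chosen after seeing the data, gave 2.57 (adjusted p = 0.00046), and DESeq2 on all 18 libraries gave 2.59 (adjusted p = 0.00676). The share of all transcripts called in this pair, 12.5% with all libraries, was 32.8% without the 3 libraries and 21.4% without Juvenile 6d replicate 1. Over the 28 alternatives the adjusted p ranged from 0.000233 to 0.208, and 6 of them called the pair.

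The other pairs between the first and middle days also depended on the libraries in the fit. CYP18A1 was higher at Juvenile 4d than at Juvenile 2d by 2.10 (SE 0.82, edgeR adjusted p = 0.0459), but 13 of the 18 omissions of 1 library ended this call, at adjusted p-values of 0.0507 to 0.146, as did testing without the filter on low counts (adjusted p = 0.0502). The 5 that kept it left out Juvenile 6d replicate 1 or 2 or any replicate of Juvenile 7d. At Juvenile 5d it was at 2.29 over Juvenile 3d (SE 0.83, adjusted p = 0.0657) and at 1.84 over Juvenile 2d (SE 0.82, adjusted p = 0.0957), with 33.2% of all transcripts called in the last comparison. Without the 3 libraries that stood apart the adjusted p-values for these 3 pairs were 0.000187, 0.000299 and 0.000802. Within the libraries of Juvenile 2d to 5d alone, 4 of the 6 pairs were called for CYP18A1, against 1 of the same pairs in the fit to all 18 libraries. For sad these counts were 4 and 3. The share of all transcripts called was also higher in the fit to Juvenile 2d to 5d, at 33.2% for Juvenile 4d over 3d, 36.6% for Juvenile 5d over 3d, 62.0% for Juvenile 4d over 2d and 50.3% for Juvenile 5d over 2d.

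Between Juvenile 4d and 5d the levels of CYP18A1 overlapped, at -0.26 with a 95% interval of -1.80 to 1.28. The last days against the middle days were not called for it either. The values were 1.71 at Juvenile 6d over 4d (adjusted p = 0.134), with 25.4% of all transcripts called, 1.90 at Juvenile 7d over 4d (adjusted p = 0.102), with 24.2%, 1.97 at Juvenile 6d over 5d (adjusted p = 0.141), with 8.63%, and 2.16 at Juvenile 7d over 5d (adjusted p = 0.0617), with 27.6%. All 4 became calls when Juvenile 6d replicate 1 was left out, with adjusted p-values of 0.00672 to 0.0142, and 12 of the 15 pairs were called in that fit. Calls over all transcripts rose there too, to 33.8% at Juvenile 6d over 4d, 33.1% at Juvenile 7d over 4d, 26.5% at Juvenile 6d over 5d and 37.1% at Juvenile 7d over 5d. Without Juvenile 7d replicate 2 the pair of Juvenile 7d and 5d was called too (2.52, adjusted p = 0.0485).

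Juvenile 7d and 6d did not differ by the test for either transcript. CYP18A1 was at 0.19 with a 95% interval of -1.34 to 1.73 (edgeR adjusted p = 0.954), and sad at 0.23 with an interval of -0.38 to 0.84 (edgeR adjusted p = 0.822). The share called among all transcripts by edgeR in this pair was 0%, with 1059 of 10436 transcripts at an unadjusted p below 0.05, and DESeq2 called 53. The sign for CYP18A1 changed with the libraries used, and it was -0.36 when Juvenile 6d replicate 1 was left out, -0.91 when Juvenile 7d replicate 3 was left out and -1.66 (adjusted p = 0.0538) when all 3 libraries that stood apart were.

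The mean of Juvenile 6d and 7d was also set against the mean of Juvenile 2d and 3d. CYP18A1 was higher on the late days by 4.13 on the log2 scale (SE 0.63, edgeR adjusted p = 0.00032), which is 17.5-fold, in a comparison that called 46.1% of all transcripts. The fold change stood at percentile 98.6 of all transcripts tested. All 27 alternatives kept the call, with fold changes of 3.58 to 4.41 and 3.95 without the 3 libraries that stood apart. For sad the same comparison gave 0.05 with a 95% interval of -0.38 to 0.48 (edgeR adjusted p = 0.874), below the median of 0.09 over all transcripts, and its sign changed with the scaling, to -0.073 after upper quartile normalization. The early mean of sad combines its lowest and its highest day. On the TPM scale the median transcript was itself higher by 0.28 in log2(TPM + 1) on the late days, and sad was at 0.25 and CYP18A1 at 3.71.

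The ratio of CYP18A1 to sad, which TPM allows because it is scaled by length, sets the transcript for breakdown against the transcript for synthesis in the same library. At Juvenile 2d the ratio was 0.825, 0.493 and 1.39. At Juvenile 3d it was 0.4203, 0.166 and 0.236, the lowest of all days, so sad exceeded CYP18A1 in all 3 libraries. At Juvenile 4d the ratio was 1.74, 1.22 and 2.70, and at Juvenile 5d 3.97, 2.39 and 1.67, so CYP18A1 exceeded sad in all 6 libraries. At Juvenile 6d it was 0.722, 19.3 and 6.66, and at Juvenile 7d 3.06, 3.23 and 25.4. The geometric mean ran through 0.826, 0.254, 1.79, 2.51, 4.52 and 6.31 from Juvenile 2d to 7d.

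**Figure D3:**
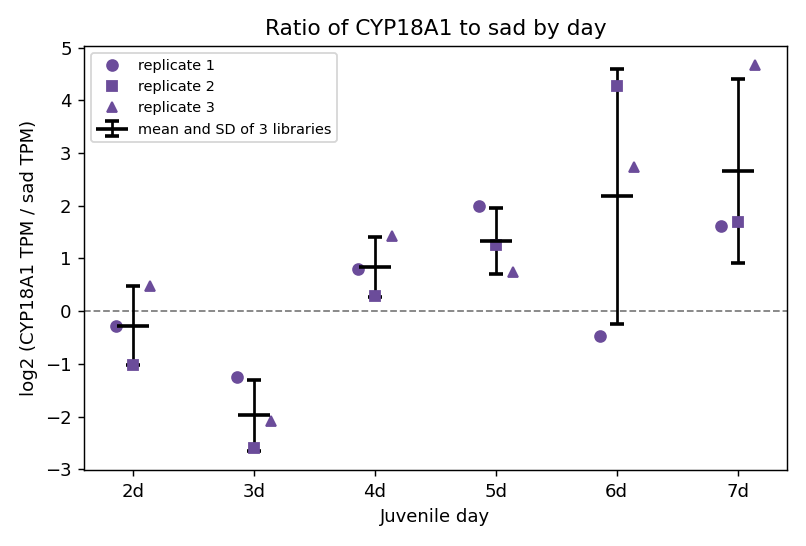
Log2 of the ratio of CYP18A1 TPM to sad TPM in each library by juvenile day, with the mean and SD of 3 libraries in black and a dashed line at equal TPM. The Juvenile 3d libraries lie between -2.59 and -1.25, all Juvenile 4d and 5d libraries lie above 0, and Juvenile 6d replicate 1 lies at -0.47.

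On the log2 scale the ratio averaged 2.42 ± 1.90 in the late libraries and -1.12 ± 1.13 in the early libraries (SD, n = 6 each), a difference of 3.54. Of the 6 late libraries 5 lay above the highest early library, and Juvenile 6d replicate 1 lay within the early range. The difference was 4.12 without that library, 3.09 without Juvenile 7d replicate 3 and 3.65 without the 3 libraries that stood apart. With estimated counts in place of TPM it was also 3.54, as it had to be, because the scaling by length nearly cancels in the difference. The ratio combines both transcripts and is given as a description, with no p-value.

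The 2 enzymes did not follow each other over the 18 libraries. Pearson's r of their log2(TPM + 1) values was 0.25, and 0.16 without the 3 libraries that stood apart. The points share days, so r is a description. In the plot of one enzyme against the other the days occupy different corners. Juvenile 2d held both low, Juvenile 3d held sad high with CYP18A1 low, Juvenile 4d held both higher, and Juvenile 5d held sad low with CYP18A1 still above its early range. The libraries of the last 2 days were found in several of these places. Juvenile 6d replicate 1 lay beside Juvenile 2d, Juvenile 6d replicate 2 and Juvenile 7d replicate 3 combined high CYP18A1 with 21.8 and 23.9 TPM of sad, and Juvenile 6d replicate 3 and Juvenile 7d replicates 1 and 2 held 40.1 to 51.9 TPM of sad.

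**Figure D4:**
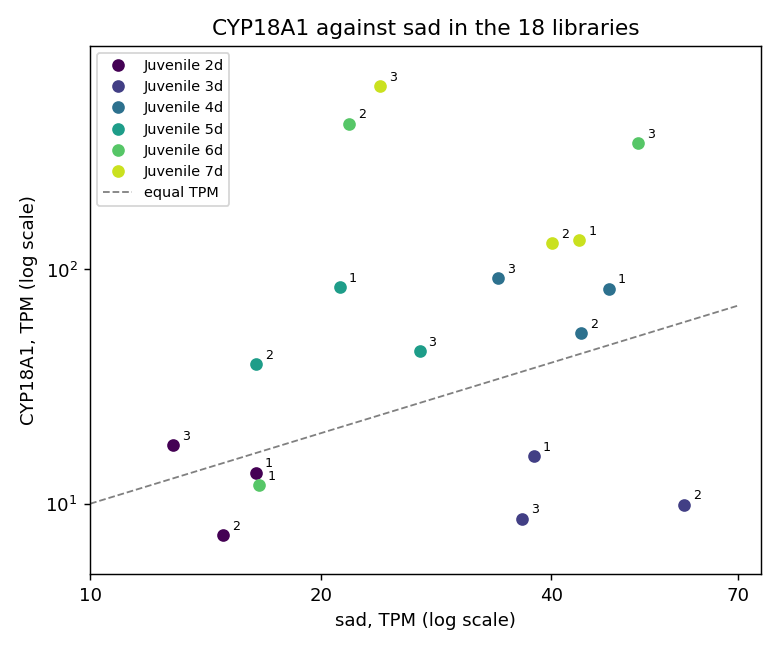
TPM of CYP18A1 against TPM of sad in the 18 libraries, both on log scales, coloured by juvenile day and numbered by replicate, with a dashed line at equal TPM. The Juvenile 3d libraries lie at 36.7 to 59.6 TPM of sad at up to 15.95 TPM of CYP18A1, and the Juvenile 5d libraries at 16.4 to 26.9 TPM of sad at 39.3 TPM of CYP18A1 or more.

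The other molting pathway transcripts that the study named are 4 of the hormone receptor and 6 of response genes, and all 10 passed the filter on low counts. The receptor list holds 2 copies of EcR, the subunit that binds the hormone (g12979.t1 and g8354.t1), and 2 transcripts of the gene of USP/RXR, its partner (g11953.t1 and g11953.t2), between which reads had to be divided. The response list holds the ETS factor E74 and the nuclear receptors E75, E78, HR3, HR4 and bFtz-F1. At Juvenile 3d over 2d, where sad was called and CYP18A1 was not (-0.46, adjusted p = 0.716), 2 of 4 receptor and 2 of 6 response transcripts were called, all higher, against 25.8% of all transcripts in either direction. At an unadjusted p below 0.05 there were 5 response transcripts, and DESeq2 called 5 and limma 2 of the 6. The receptor and response transcripts called by edgeR were both copies of EcR, HR3 (5.74, SE 1.32) and HR4 (3.32, SE 0.50). The list medians were 0.72 and 2.34, against 0.01 over all transcripts.

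At Juvenile 4d over 2d both enzymes, all 4 receptor and 5 of 6 response transcripts were called higher. Of all 10436 transcripts 49.5% were called in either direction and 2624 were called higher. The list medians were 2.33 and 4.72, against 0.01 over all transcripts. E78 was the one not called by edgeR, and DESeq2 called all 6. At Juvenile 4d over 3d, 2 of 4 receptor and 4 of 6 response transcripts were called higher, and neither enzyme was called in the fit to all libraries. Of all 10436 transcripts 12.5% were called in either direction and 748 were called higher. At Juvenile 5d over 4d 1 receptor transcript, g11953.t1 (-1.01), and 1 response transcript, bFtz-F1 (-3.86), were called lower by edgeR. Of all 10436 transcripts 24.8% were called in either direction and 1238 were called lower. Here the tools differed, since 5 of the 6 response transcripts had an unadjusted p below 0.05 and DESeq2 called 4 and limma 3 of them. The median of the response list was -1.58, against -0.03 over all transcripts. On the late over the early days 3 of 4 receptor and 5 of 6 response transcripts were called higher. Of all 10436 transcripts 46.1% were called in either direction and 2842 were called higher. The list medians were 1.18 and 1.60, both below the 4.13 of CYP18A1. Within the response list HR3 was at 3.02 (SE 0.82), bFtz-F1 at 2.29 and HR4 at 2.22. E74, E75 and E78 were at 0.97, 0.73 and 0.08. A higher level on the late than on the early days was thus not particular to CYP18A1 in this pathway. For HR3, HR4 and bFtz-F1 the early days included means of 1.43, 0.433 and 0.754 TPM at Juvenile 2d. Their highest daily means were at Juvenile 4d, not on the late days. HR3 held 583 TPM at Juvenile 4d, against 89.2 TPM at Juvenile 6d and 169 TPM at Juvenile 7d. At Juvenile 6d over 3d and likewise at Juvenile 7d over 3d, 1 receptor transcript, g11953.t1, was called higher and 0 of 6 response transcripts were called by edgeR. CYP18A1 was called in both. Over all transcripts 10.7% were called in either direction at Juvenile 6d and 22.5% at Juvenile 7d. At an unadjusted p below 0.05 in edgeR there were 0 response transcripts in the comparison of Juvenile 6d and 1 in that of Juvenile 7d, and DESeq2 and limma called 0 in each. For CYP18A1 DESeq2 called both comparisons, and limma on log2(TPM + 1) called only Juvenile 7d over 3d. In limma its Juvenile 6d over 3d stood at 3.35 (adjusted p = 0.0588). Of the 10 other transcripts 9 had their highest daily mean at Juvenile 4d, and EcR g12979.t1 had it at Juvenile 6d.

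**Figure D5:**
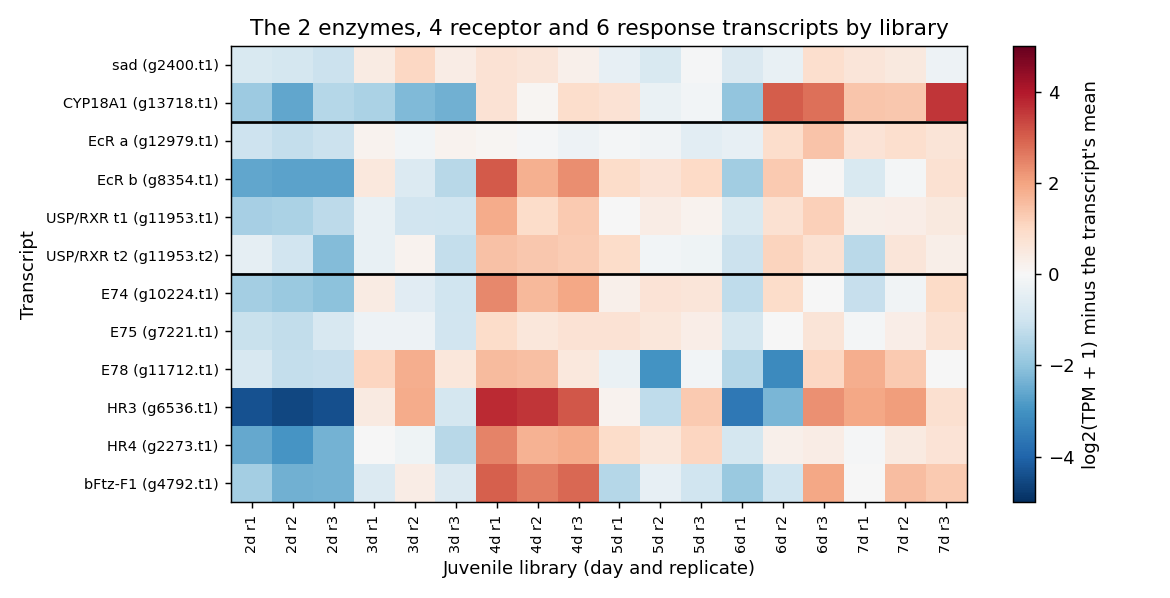
Each transcript's log2(TPM + 1) minus its own mean over the 18 libraries, for the 2 enzymes, 4 receptor and 6 response transcripts (separated by lines), with libraries ordered by day and replicate. CYP18A1 is highest in 3 of the 6 libraries of Juvenile 6d and 7d, whereas most of the response transcripts are highest at Juvenile 4d.

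Among these 10 transcripts, sad went most closely with 2 of the response genes library by library. Its Pearson's r over the 18 libraries was 0.86 with HR3 and 0.84 with E78, 0.74 with bFtz-F1 and between 0.43 and 0.62 with the other 7. HR3 and E78 ranked 273 and 351 among the 10572 other transcripts with a mean above 1 TPM. Without the 3 libraries that stood apart r was 0.86 with HR3 and 0.84 with E78. After each day's mean was subtracted, r was 0.94 with HR3 and 0.82 with E78, so the replicates within a day also deviated together. These within-day values were not ranked among all transcripts. They were not computed without the 3 libraries that stood apart, which departed from their day across the transcriptome. At Juvenile 6d, where sad held 16.6, 21.8 and 51.9 TPM, HR3 held 3.41, 9.76 and 254 TPM and E78 held 9.54, 2.16 and 56.8 TPM. Replicate 3 was thus the high library for all 3 transcripts. At Juvenile 5d replicate 2, the lowest of that day for sad, was also the lowest for HR3 (20.8 TPM) and for E78 (2.62 TPM). At Juvenile 7d replicate 3, with the lowest sad of that day, held 89.3 TPM of HR3 and 26.7 TPM of E78, against 196 and 221 TPM of HR3 and 100.4 and 69.0 TPM of E78 in replicates 1 and 2.

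For CYP18A1 the highest values among these 10 transcripts were with others than for sad. Its r over the 18 libraries was 0.77 with USP/RXR g11953.t1, 0.75 with EcR g12979.t1 and 0.74 with E75, and it was 0.03 with E78. These first 3 ranked 1602, 1722 and 1834 among the 10572 other transcripts. Without the 3 libraries that stood apart r was 0.78 with USP/RXR g11953.t1 and 0.68 with EcR g12979.t1. It was 0.68 with E75 and -0.09 with E78. Within days r was 0.82 with EcR g8354.t1, 0.82 with E75 and 0.80 with USP/RXR g11953.t1. These too were neither ranked among all transcripts nor computed without the 3 libraries that stood apart. At Juvenile 6d, EcR g8354.t1 held 12.9, 113 and 47.3 TPM, so the library with the lowest CYP18A1 was the lowest there and that with the highest CYP18A1 the highest. At Juvenile 7d it held 26.5, 42.6 and 78.1 TPM, and replicate 3 was the highest for both transcripts. These correlations are over libraries that share days and are given without p-values.

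Among the 10572 other transcripts with a mean above 1 TPM, the closest to sad by Pearson's r of log2(TPM + 1) over the 18 libraries were g13311.t1 (0.97) and g6108.t1 (0.96). The daily means of g13311.t1 were 0.289, 17.9, 21.1, 3.34 and 6.98 TPM from Juvenile 2d to 6d, with the highest of all days at Juvenile 4d. Those of g6108.t1 were 0.321, 14.4, 12.2, 1.95, 7.12 and 14.1 TPM from Juvenile 2d to 7d, with the highest at Juvenile 3d as for sad. Both spanned a wider range of folds than sad. The closest to CYP18A1 were g6770.t1 and g3584.t1 (both 0.97). The daily mean of g3584.t1 was 14.3, 16.7, 36.4, 31.1, 65.5 and 75.6 TPM from Juvenile 2d to 7d, whereas g6770.t1 moved over a narrow range, from 106.7 TPM at Juvenile 2d to 185 TPM at Juvenile 7d. The sources used here give no names for these 4 transcripts. An r above 0.9 was found for 142 transcripts with sad and for 286 with CYP18A1.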

How the data were processed

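Whole-body RNA of 18 juvenile libraries was amplified with the SMARTer kit and sequenced single-end. With kallisto the authors estimated abundances on predicted coding sequences, and they deposited estimated counts without normalization and TPM values (per the labels, kallisto 0.42.4 and 0.44.0 are both listed). The deposited sequence and effective lengths (other values) were used only for the coding length. Rounded estimated counts were tested in R 4.3.3 by the quasi-likelihood F test of edgeR 4.0.16, after TMM and its filter by day (minimum count 10), with calls at adjusted p up to 0.05. The SE is |log2 fold change|/√F, and 95% intervals are approximate, reaching 1.96 SE to each side. They are somewhat narrower than the F test would give. For CYP18A1 at Juvenile 6d over 4d the interval of 0.14 to 3.29 lies above 0, at an unadjusted edgeR p of 0.0506. The alternatives were DESeq2 1.42.0, limma 3.58.1 on log2(TPM + 1) and log2(TPM + 0.1), other normalizations, no filter, a replicate block and omitted libraries. The tests were tried on simulated data. Levels and correlations were computed in Python 3.11.15. Members, lists and tests were chosen with earlier results of these data known. The exact permutation test planned for the ratio was run and its p is not given. The methods describe juveniles of days 3 to 7 and the labels days 2 to 7, which were used. Named transcripts were the 2 enzymes, the 10 others the study named in this pathway and the 2 most like each enzyme. No sequence or genome position was used here, and 0 identifiers matched the reference gene table.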

Additional observations from a re-analysis of the deposited data

How the results depend on the processing

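Of 177 alternative values for the 7 main results, 160 kept their direction and their side of the threshold, or for counts of pairs stayed within 1.5 times. The 160 include the 15 alternatives of the ratio, judged by the permutation test whose p is not given. Among these is the use of estimated counts, which could not change the difference. The difference over any day held in all alternatives for both transcripts, as did the late over early difference of CYP18A1 (3.58 to 4.41). That of the ratio kept its direction (3.09 to 4.12). The late over early difference of sad, not called in any alternative, turned to -0.073 with upper quartile normalization and to -0.089 without the 3 libraries that stood apart, and lay between -0.17 and 0.17 when 1 library was left out. The pairs called for sad numbered 8 without those 3 libraries and 2 to 7 with 1 library left out. For CYP18A1 they numbered 11 without those 3 libraries, 9 with DESeq2 and 3 to 12 with 1 library left out. Without those 3 libraries the share of all transcripts called rose too, in each pair of days. The higher counts in that fit thus do not set either transcript apart. Without Juvenile 6d replicate 1, the fit with 12 calls, the share rose from 24.8% to 33% at Juvenile 5d over 4d. Without Juvenile 6d replicate 3, with 7 calls for sad, it rose to 50.7% from 49.5% at Juvenile 4d over 2d. It fell there to 8.09% from 10.7% at Juvenile 6d over 3d. Signs also turned, with no call, without the 3 libraries, for sad at Juvenile 7d over 4d (0.0091) and at Juvenile 6d over 5d (-0.19) and for CYP18A1 at Juvenile 7d over 6d (-1.66). With 1 library left out these 3 pairs ranged from -0.42 to 0.0090, from -0.12 to 0.52 and from -0.91 to 0.78. The cause was not tested.

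Replicate numbers did not pair the libraries. Deviations of same-numbered libraries from their day means had correlations of -0.30 to 0.19 over 45 pairs, and 1 of 18 libraries went best with its own number. With the replicate number as a block, 2 pairs were called for sad (Juvenile 3d and 4d over 2d) and 4 for CYP18A1, the pair of Juvenile 4d and 2d being lost (2.13, adjusted p = 0.0537).

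With 3 libraries per day and a wide spread at Juvenile 6d and 7d, differences of about 2 on the log2 scale in CYP18A1 passed or missed the threshold by the libraries included. A count of 0 would allow up to 3 counts, and neither transcript was near it.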
